A study of Homo sapiens with 36 samples.

Results

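A set of 10 Notch pathway genes was followed through 24 RNA-seq libraries of HCT-116 cells, a human colorectal cancer line, taken from a series of 36 libraries. They were the receptors NOTCH1, NOTCH2 and NOTCH3, the ligands JAG1, JAG2 and DLL1, and the transcriptional repressors HES1, HES2, HES4 and HEY1, out of the 62757 genes listed in the count tables. The 10 genes were chosen by pathway membership and, in part, selected on the measured counts of HES2, which were higher after oxaliplatin (OXPT), a platinum drug that crosslinks DNA. The OXPT changes of HES2 are therefore given as a description with no test. The other 9 genes were tested where their counts allowed.

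The cells were wild type (WT) or lacked FBXW7 (FBXW7-/-, KO), the substrate-recognition subunit of a ubiquitin ligase that targets activated Notch among other proteins. Both lines came from a commercial source, and whether the KO line is a single clone was not given in the sources used here. KO cells received for 48 h either a control esiRNA (esiCT), an esiRNA pool against the class IIa deacetylase HDAC4 (esiHDAC4), or esiCT together with #11, a PROTAC that degrades class IIa HDACs. The dose of #11 is 1 µM in one label and 10 µM in another and could not be settled. In each of these 3 arms, 3 libraries were left without OXPT and 3 received 50 µM OXPT for the last 24 h, and the untreated cells were given the matching solvents. For WT cells 6 libraries, 3 untreated and 3 with OXPT, were used for the comparison of genotypes; their titles name esiCT and their treatment entries esiHDAC4, so the esiRNA they carried is unsettled. HDAC4 itself read 18.8, 25.6 and 21.6 CPM in the untreated WT libraries, against 18.4, 14 and 24.9 CPM in KO esiCT and 8.94, 8.80 and 14.9 CPM in KO esiHDAC4. The labels do not say that same-group libraries came from separate cultures, so p-values measure the spread between libraries, which may be technical.

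Notch receptors are membrane proteins that are cut when a ligand of the Delta or Jagged type on a neighbouring cell pulls on them, first by an ADAM protease and then by gamma-secretase. The released intracellular domain enters the nucleus, joins the DNA-binding protein RBPJ and Mastermind-like coactivators, and turns on repressors of the HES and HEY families. In the intestinal crypt this chain keeps progenitors from taking the secretory fate, which HES1 does by repressing ATOH1.

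The libraries held 10725966 to 20527222 counts assigned to genes. All 7 epithelial markers were detected above the count minimum, and their summed level was 5516 to 11523 CPM (counts scaled to a common library size) in the untreated and 8822 to 22466 CPM in the OXPT libraries; the part of this shift in the OXPT results was not tested. Immune markers summed to at most 0.833 CPM and endothelial markers to at most 2.87 CPM in every library, and of 5 fibroblast markers only COL1A1 passed the minimum. HDAC4 averaged 19.1 CPM in untreated KO esiCT cells against 10.9 CPM after esiHDAC4, and 6.5 against 3.88 CPM under OXPT. FBXW7 averaged 16.9 CPM in untreated KO esiCT cells and 21.1 CPM in untreated WT cells; these counts cover all exons and would miss a small deletion, so they do not check the genotype. Some replicate 3 libraries stood apart. The KO esiCT OXPT replicate 3 had the lowest TMM normalization factor (0.789) and the largest share of unmapped reads (22.3%), and the untreated WT replicate 3 had a factor of 0.851.

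Of the 10 genes, 9 reached the minimum of a mean of 64 counts in at least 1 group. HEY1 did not, with 0.48 to 3.87 CPM over the 24 libraries. Levels between genes were compared per kilobase of merged exon over all annotated transcripts. On that scale HES4 was highest, with group means of 68.9 to 157 CPM per kb, followed by JAG2 at 11.6 to 39.8, HES1 at 11.6 to 29.1 and HES2 at 4.52 to 31.8 CPM per kb. JAG1 ran from 4.48 to 16.6 and NOTCH3 from 3.91 to 12.1 CPM per kb. NOTCH1 (3.33 to 5.78), NOTCH2 (1.92 to 3.03), DLL1 (1.49 to 2.68) and HEY1 (0.173 to 0.579 CPM per kb) were lower. The ranges of group means of neighbours in this order overlapped except for HES4 against JAG2, NOTCH1 against NOTCH2, and DLL1 against HEY1. In its group mean JAG2 was above HES2 in all 8 groups.

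**Figure D1:**
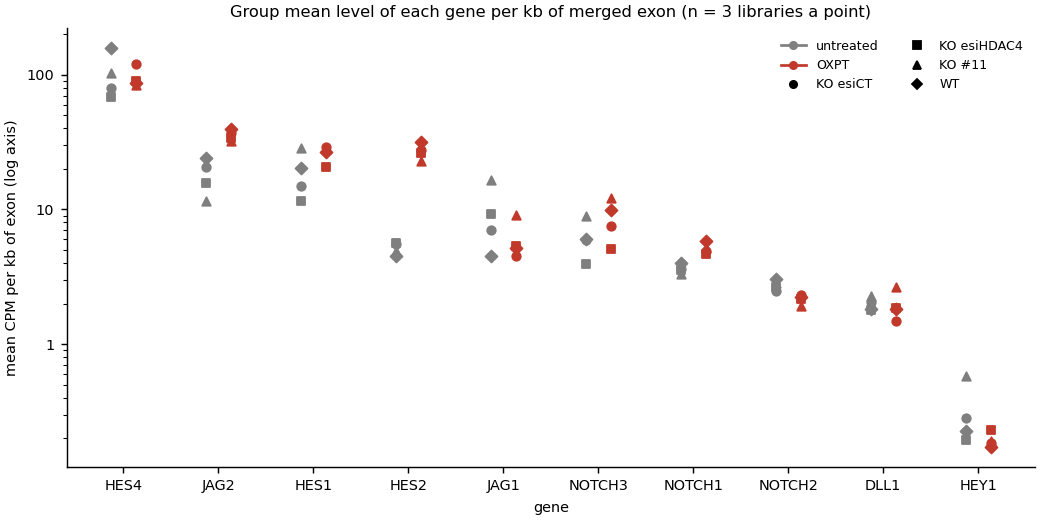
Group mean level of each of the 10 genes in CPM per kb of merged exon, on a log axis, with 1 point for each of the 8 groups (3 libraries each; grey untreated, red OXPT; shapes mark the arm). HES4 lies above all others and HEY1 below, and HES2 is the gene whose untreated (4.52 to 5.63) and OXPT (23.1 to 31.8) points are farthest apart.

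HES2 (chr1:6412418-6424670, - strand, positions here and below from GENCODE 44 on GRCh38) encodes a basic helix-loop-helix repressor of the HES family that has been studied far less than HES1. In untreated KO esiCT cells it read 26.6, 19.6 and 43.1 CPM, and under OXPT 143, 142 and 165 CPM. In KO esiHDAC4 cells the untreated libraries read 31.2, 18.9 and 41.2 CPM and those with OXPT 122, 127 and 176 CPM. Every OXPT library lay far above every untreated one, with or without HDAC4 silencing. With #11 the values were 19.5, 21.6 and 38.7 CPM untreated and 125, 116 and 132 CPM with OXPT. In WT cells they were 28.4, 17.2 and 27.8 CPM untreated and 136, 148 and 232 CPM with OXPT. The gap therefore appeared in all 4 arms, and the lowest OXPT library of all (116 CPM) stood above the highest untreated one (43.1 CPM). As a description, the fitted log2 fold changes were 2.33 (SE 0.33) in KO esiCT, 2.22 (SE 0.33) in KO esiHDAC4, 2.23 (SE 0.33) in KO #11 and 2.82 (SE 0.34) in WT cells. In bulk libraries, more cells that express a gene and more RNA per cell cannot be told apart.

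Ordered by mean, HES2 was highest in WT OXPT cells (172 ± 52.6 CPM, SD, n = 3), then in KO esiCT (150 ± 12.8), KO esiHDAC4 (142 ± 29.4) and KO #11 cells with OXPT (125 ± 7.81 CPM). The 4 untreated groups followed, at 24.4 to 30.4 CPM. Neighbours in this order overlapped at every step except the one between KO #11 with OXPT and the untreated groups. Comparisons that do not involve the OXPT contrast were tested for HES2, though they draw on the same libraries in which it was picked. KO and WT cells did not pass the test untreated (log2 fold change 0.29, SE 0.32) or with OXPT (-0.20, SE 0.32), nor did esiHDAC4 against esiCT (0.03 untreated and -0.08 with OXPT). With OXPT, all 3 #11 libraries lay below all 3 esiCT libraries, but the difference was small (-0.27, SE 0.32) and did not pass (adjusted p = 0.81, edgeR quasi-likelihood test).

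**Figure D2:**
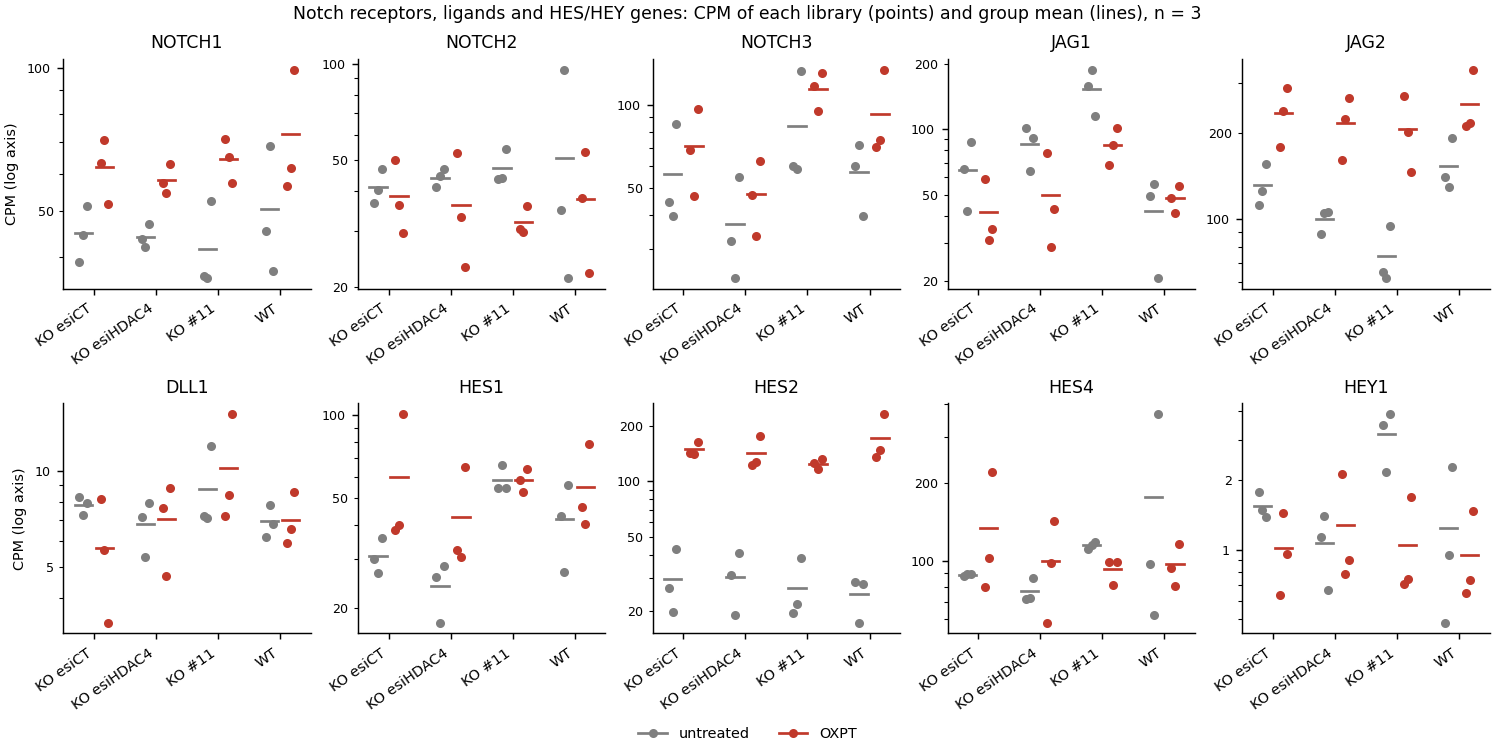
CPM of each of the 10 genes in the 24 libraries, 1 panel a gene with its own log axis; points are libraries, lines are group means of 3, grey is untreated and red OXPT. The red HES2 points (116 to 232 CPM) are separated from the grey ones (17.2 to 43.1 CPM) in all 4 arms, JAG2 shows a smaller separation within each arm, and most other genes overlap.

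Sequence upstream of a RefSeq start is given here for HES1, HES2 and HES4. The windows below are the 250 bases before the RefSeq start (GRCh38.p14), written 5′ to 3′ on the transcribed strand, with TGGGAA, the core bound by RBPJ, in capitals on either strand. They are shown because HES1 is the textbook Notch target and HES2 the gene with the largest OXPT change.
HES1, chr3:194135898-194136147, + strand: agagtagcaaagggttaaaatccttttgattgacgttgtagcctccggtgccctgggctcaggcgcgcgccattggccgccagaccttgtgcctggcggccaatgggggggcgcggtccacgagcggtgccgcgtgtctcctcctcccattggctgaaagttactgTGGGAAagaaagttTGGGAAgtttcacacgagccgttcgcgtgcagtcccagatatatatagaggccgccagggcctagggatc
HES2, chr1:6419920-6420169, - strand: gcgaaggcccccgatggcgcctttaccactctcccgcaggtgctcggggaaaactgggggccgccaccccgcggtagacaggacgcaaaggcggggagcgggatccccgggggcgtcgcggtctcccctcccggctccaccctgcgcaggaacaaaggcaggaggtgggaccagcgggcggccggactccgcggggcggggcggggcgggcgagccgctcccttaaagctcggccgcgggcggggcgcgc
For HES4 only the 30 bases around its match are shown, because an exon of another annotated transcript starts within the window.
HES4, chr1:1000156-1000185, - strand: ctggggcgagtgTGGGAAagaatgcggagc

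The HES1 window held TGGGAA 2 times, starting 84 and 70 bases before the start, and the HES4 window 1 time, 76 bases before it. HES2 had no match in its 250 bases; that window lies inside the gene's annotated span, which reaches farther upstream to position 6424670, and the upstream start was not examined. No match was found for NOTCH1, NOTCH2, NOTCH3, JAG1 or JAG2, so 2 of the 8 genes with an entry in the promoter table carried the motif. DLL1 and HEY1 had no entry. TGGGAA occurred in 20.8% of all 35116 promoter windows of this length. The HES family itself binds N-boxes (CACNAG) and class C E-boxes (CACGNG), and the letters CACGAG count as both. HES1 had 3 CACNAG and 4 CACGNG matches, HES2 none of either; the motifs were found in 32.0% and 26.7% of all windows on either strand. NOTCH3 had 1 match of each, at the same position, and JAG2 had 2 of CACGNG. A match is a stretch of letters, not a measured binding site.

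Among the other 9 genes, JAG2 was the one called after OXPT, where called means past 2 thresholds in edgeR's quasi-likelihood test, a fold change over 1.5 and an adjusted p (Benjamini-Hochberg, 12356 genes) under 0.05. It rose in all 3 KO arms. In KO esiCT cells 1 of the 8 tested genes other than HES2 was called, against 11.3% of all genes; in KO esiHDAC4 it was 1 of 8 against 12.0%, and in KO #11 1 of 8 against 9.51%. In WT cells none of the 8 was called by edgeR or by DESeq2, 2 had an unadjusted p under 0.05 (24.7% of all genes did), and 10.7% of all genes were called. A share of 1 in 8 is near these backgrounds. The median log2 fold change of the 8 genes was 0.39 in KO esiCT, 0.38 in KO esiHDAC4, 0.11 in KO #11 and 0.29 in WT cells, beside medians of 0.01, 0.02, -0.0024 and -0.06 over all genes. OXPT and untreated libraries did not overlap for 3 of the 8 genes in KO esiCT (30.1% of all genes), 3 in KO esiHDAC4 (35.4%), 5 in KO #11 (42.5%) and 1 in WT cells (21.3%).

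JAG2 (chr14:105140982-105168824, - strand) encodes Jagged 2, a transmembrane ligand of Notch receptors. In KO esiCT cells it read 112, 125 and 157 CPM untreated and 180, 240 and 288 CPM with OXPT. In KO esiHDAC4 cells it read 88.6, 105 and 106 CPM untreated and 161, 225 and 267 CPM with OXPT. The OXPT libraries lay above the untreated ones in both arms. With #11 the values were 65.4, 61.9 and 94.7 CPM untreated and 271, 203 and 147 CPM with OXPT, again without overlap. In WT cells they were 141, 129 and 193 CPM untreated and 212, 217 and 336 CPM with OXPT, also without overlap. The log2 fold change was 0.84 (SE 0.27, adjusted p = 0.0431) in KO esiCT, 1.12 (SE 0.27, adjusted p = 0.00794) in KO esiHDAC4 and 1.48 (SE 0.27, adjusted p = 0.00116) in KO #11 cells in the edgeR test. In WT cells it was 0.73 (SE 0.26) and missed the threshold (adjusted p = 0.0844); with the replicate number as a block, edgeR gave 0.72 and an adjusted p of 0.0389.

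The JAG2 call in KO esiCT cells was the least firm of the 3. It was lost in 12 of the 24 fits that left out 1 library, with log2 fold changes of 0.67 to 0.99, and in 4 other alternatives. The call in KO esiHDAC4 was lost when untreated replicate 1 was left out (log2 fold change 1.00, adjusted p = 0.056 in edgeR), and the call in KO #11 held in every alternative run. None of the differences in OXPT effect between arms was called for JAG2: the interaction was 0.12 (SE 0.37) for KO against WT, 0.28 (SE 0.37) for esiHDAC4 and 0.64 (SE 0.37) for #11 against esiCT. The JAG2 exons share 469 bases (7.33%) with a long noncoding RNA on the same strand, and reads there cannot be assigned to one or the other.

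JAG1 (chr20:10637684-10673999, - strand), the other Jagged ligand measured, had its largest fitted differences between #11 and esiCT. In KO esiCT cells it read 66.0, 42.2 and 87.6 CPM untreated and 59.3, 31.0 and 34.6 CPM with OXPT. With #11 it read 159, 189 and 115 CPM untreated and 68.5, 84.4 and 102 CPM with OXPT. Each untreated #11 library was thus above each untreated esiCT library, each OXPT #11 library above each OXPT esiCT library, and within #11 the OXPT libraries lay below the untreated ones. The log2 fold change of #11 against esiCT was 1.24 (SE 0.38, adjusted p = 0.121) untreated and 1.02 (SE 0.38, adjusted p = 0.346) with OXPT, and neither passed the edgeR test. The first was called by DESeq2 (1.24, adjusted p = 0.0417), in the edgeR fit to only the groups compared (1.25, adjusted p = 0.0448), and in 2 further alternatives.

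After OXPT the fitted JAG1 change was -0.86 (SE 0.38, adjusted p = 0.165) in KO #11, -0.78 (SE 0.38, adjusted p = 0.199) in KO esiHDAC4 and -0.65 (SE 0.38) in KO esiCT cells in edgeR, none past the threshold. In KO esiHDAC4 cells it read 101, 64.5 and 90.8 CPM untreated and 77.5, 28.6 and 43.1 CPM with OXPT, and the groups overlapped. Without the OXPT replicate 1 of that arm, edgeR gave -1.25 and an adjusted p of 0.0435. In WT cells JAG1 read 49.5, 55.9 and 20.5 CPM untreated and 48.4, 41 and 54.6 CPM with OXPT, a log2 fold change of 0.19 (SE 0.38). The genotype interaction for JAG1, -0.84 (SE 0.53), was not called. JAG1 shares 306 exon bases (3.29%) with a long noncoding RNA on the opposite strand, and the counts used here do not separate strands.

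DLL1, a Delta-type ligand, was close to the count minimum at 3.33 to 15.1 CPM. It had 28 to 188 counts a library, and 9.69% of its exon bases (370) lie over the opposite-strand gene FAM120B. Its OXPT changes ran from -0.43 (SE 0.33) in KO esiCT to 0.23 (SE 0.33) in KO #11 cells, with overlapping groups in all 4 arms. The largest DLL1 difference was #11 against esiCT with OXPT (0.82, SE 0.33, adjusted p = 0.412 in edgeR), where the #11 libraries read 7.22, 8.37 and 15.1 CPM and the esiCT libraries 8.14, 5.64 and 3.33 CPM. These groups overlapped.

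**Figure D3:**
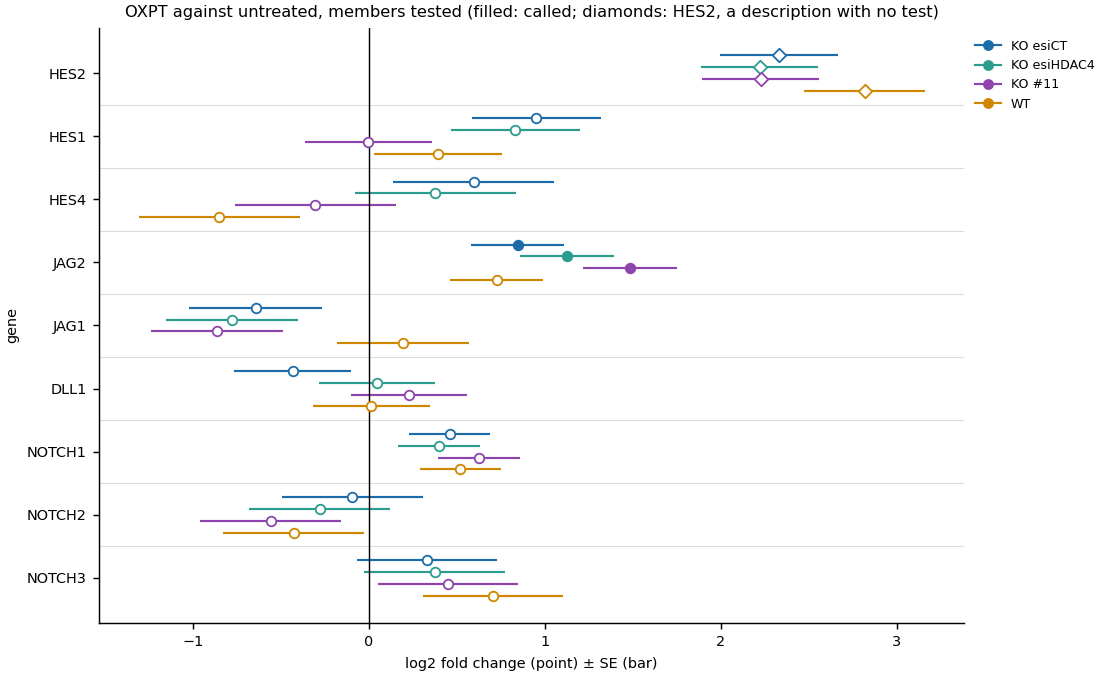
Log2 fold change of OXPT against untreated for the 9 tested genes in the 4 arms; points are edgeR estimates, bars are standard errors, filled circles are called and diamonds mark HES2, which was not tested. HES2 lies at 2.22 to 2.82 and JAG2 at 0.73 to 1.48 with 3 filled points. The points of HES4, JAG1, DLL1 and HES1 differ in sign between arms, HES1 only by -0.0034 in KO #11.

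The 3 receptors had no call after OXPT. NOTCH1 (chr9:136494433-136546048, - strand) encodes a receptor of the intestinal epithelium. In KO esiCT cells it read 39.1, 44.7 and 51.2 CPM untreated and 63.1, 70.5 and 51.7 CPM with OXPT. In KO esiHDAC4 it read 43.7, 42.1 and 46.9 CPM against 57.4, 54.7 and 62.8 CPM with OXPT, and in KO #11 36.5, 36.1 and 52.4 CPM against 70.8, 64.9 and 57.3 CPM. The OXPT libraries were higher without overlap in all 3 KO arms, though in KO esiCT and #11 the nearest libraries were close. In WT cells the groups overlapped, at 45.4, 68.6 and 37.4 CPM untreated and 56.6, 61.6 and 99.2 CPM with OXPT. The log2 fold changes were 0.46 (SE 0.23, adjusted p = 0.22), 0.40 (SE 0.23, adjusted p = 0.299), 0.63 (SE 0.23, adjusted p = 0.0981) and 0.52 (SE 0.23, adjusted p = 0.165) in edgeR. Without number 3 in any group, edgeR gave adjusted p = 0.0143 in KO esiCT and 0.00348 in KO #11; leaving out WT untreated replicate 2 gave 0.79 and an adjusted p of 0.0486.

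NOTCH2 and NOTCH3 spread widely within groups. NOTCH2 ran from 21.3 to 96.0 CPM over the 24 libraries, and both extremes were untreated WT libraries (replicates 3 and 2). Its fitted OXPT changes were -0.09 to -0.56 (SE 0.40). The WT change, -0.43, became 0.41 without WT untreated replicate 2, and the KO esiCT change, -0.09, became 0.06 without KO esiCT OXPT replicate 3. The groups had no overlap in KO #11 only, where the untreated libraries read 43.7, 43.8 and 54.2 CPM and the OXPT libraries 30.5, 29.8 and 36.0 CPM. Reads of NOTCH2 can be shared with its near-identical NOTCH2NL copies, so its level is uncertain. NOTCH3 ran from 23.5 to 134 CPM and its OXPT changes were 0.33 to 0.70 (SE 0.40) with overlap in every arm. Replicate 3 was the highest NOTCH3 library in 7 of the 8 groups, the untreated WT group being the exception.

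HES1 (chr3:194136148-194138732, + strand) is the repressor through which Notch restrains ATOH1. In KO esiCT cells it read 30.2, 26.8 and 35.8 CPM untreated and 38.2, 40.1 and 101 CPM with OXPT. In KO esiHDAC4 cells it read 25.8, 17.6 and 28.4 CPM untreated and 32.5, 30.7 and 64.8 CPM with OXPT. In both arms the OXPT libraries were higher without overlap, and in both replicate 3 was far above the other 2. The log2 fold changes were 0.95 (SE 0.37, adjusted p = 0.1) and 0.83 (SE 0.37), and neither was called. With the replicate number as a block, which takes out what same-numbered libraries share, edgeR called both (0.85, adjusted p = 0.0289, and 0.78, adjusted p = 0.0428), but with the block in only the groups compared it called HES1 in neither arm. Without replicate 3 of the OXPT group they were 0.34 and 0.39.

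In KO #11 cells HES1 read 54.6, 66.0 and 54.6 CPM untreated and 58.0, 52.8 and 64 CPM with OXPT, a log2 fold change of -0.0034 (SE 0.36). The untreated #11 libraries all stood above the untreated esiCT libraries. That difference was 0.92 (SE 0.37, adjusted p = 0.251 in edgeR); it was called with the replicate block (0.97, adjusted p = 0.0438), in the fit to only the groups compared (0.92, adjusted p = 0.021) and without number 3 in any group (1.10, adjusted p = 0.00698), but not with the block in only the groups compared. Same-numbered libraries did not deviate together in the comparisons of #11 with esiCT. In WT cells HES1 read 43.1, 27.1 and 56.0 CPM untreated and 46.5, 40.3 and 78.6 CPM with OXPT (0.39, SE 0.36), with overlap. The #11 interaction for HES1, -0.95 (SE 0.51), was not called.

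HES4 (chr1:998962-1000172, - strand), a HES family member with no mouse counterpart, had most of its variation in single libraries. In untreated WT cells it read 97.7, 62.1 and 368 CPM, and with OXPT 94.6, 80.6 and 117 CPM. In KO esiCT cells it read 87.9, 89.3 and 89.5 CPM untreated and 79.7, 103 and 221 CPM with OXPT. The 2 libraries that stood far above their groups were the 2 with the low normalization factors given above; the part of library quality in this was not tested. KO against WT untreated was -0.98 (SE 0.46, adjusted p = 0.848 in edgeR) and became 0.16 without WT untreated replicate 3. OXPT in WT was -0.85 (SE 0.46, adjusted p = 0.267 in edgeR) and became 0.30 without it. OXPT in KO esiCT was 0.59 (SE 0.46) and became 0.03 without KO esiCT OXPT replicate 3. KO against WT with OXPT was 0.46 and became -0.10 without that same library. In KO #11 cells the HES4 change after OXPT, -0.31, stayed between -0.37 and -0.22 with each library left out in turn.

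In KO #11 cells HES4 read 112, 116 and 119 CPM untreated and 99.7, 81.4 and 99.2 CPM with OXPT. Those groups did not overlap, and the change was -0.31 (SE 0.46). In KO esiHDAC4 cells it read 72.0, 72.5 and 86.5 CPM untreated and 58.2, 99.0 and 143 CPM with OXPT. HEY1, a further direct Notch target, was too low for the main test. In untreated KO #11 cells it read 3.48, 2.17 and 3.87 CPM, a mean of 49 counts a library, and in the other 7 groups 0.48 to 2.27 CPM. Without the count filter edgeR called it lower after OXPT in that arm (-1.58, adjusted p = 0.0307).

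HDAC4 silencing, #11 and loss of FBXW7 were each compared with their controls for the 9 tested genes. None was called by edgeR in any of these 6 comparisons. KO against WT had 0 of 9 called untreated and 0 of 9 with OXPT, against 0.291% and 0.138% of all genes; 1 and 0 of the 9 had an unadjusted p under 0.05 (5.74% and 5.4% of all genes), and DESeq2 called 0 and 0. HDAC4 silencing had 0 of 9 untreated and 0 of 9 with OXPT, against 0.00809% and 0.0% of all genes; 0 and 0 had an unadjusted p under 0.05 (3.19% and 3.08% of all genes), and DESeq2 called 0 and 0. With #11 it was 0 of 9 and 0 of 9, against 0.51% and 0.121% of all genes. Of the 9, 3 and 2 had an unadjusted p under 0.05 (13.8% and 10.2% of all genes), and DESeq2 called 1 (JAG1) and 0. The shares called are those of edgeR. DESeq2 called more genes over all: 117 and 30 for KO against WT, 40 and 9 for HDAC4 silencing, 409 and 126 for #11. With so few edgeR calls over all genes, a count of 0 among 9 says little about these genes. These comparisons share their esiCT control libraries with each other and with the OXPT comparison in KO esiCT cells.

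Separation without a call was seen most in untreated #11 cells, the comparison of these in which groups also separated most often over all genes. JAG1, HES1 and HES4 were higher and JAG2 lower without overlap there, that is 4 of 9 genes, against 31.9% of all genes tested. The JAG2 difference was -0.83 (SE 0.27, adjusted p = 0.139 in edgeR), from a mean of 131 to 74.0 CPM. Under OXPT 2 of 9 were separated, JAG1 higher and HES2 lower, against 14.3% of all genes, and JAG2 (236 and 207 CPM) overlapped. After esiHDAC4 JAG2 and HES4 were lower without overlap untreated (-0.40, SE 0.26, and -0.21, SE 0.46), 2 of 9 against 21.7% of all genes. With OXPT 0 of 9 were separated after esiHDAC4, against 4.61% of all genes. NOTCH3 had the largest fitted change with esiHDAC4, -0.61 (SE 0.40) untreated and -0.57 (SE 0.40) with OXPT, with overlap both times. Between KO and WT cells 0 of 9 genes were separated in either state, against 6.4% untreated and 6.39% with OXPT.

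**Figure D4:**
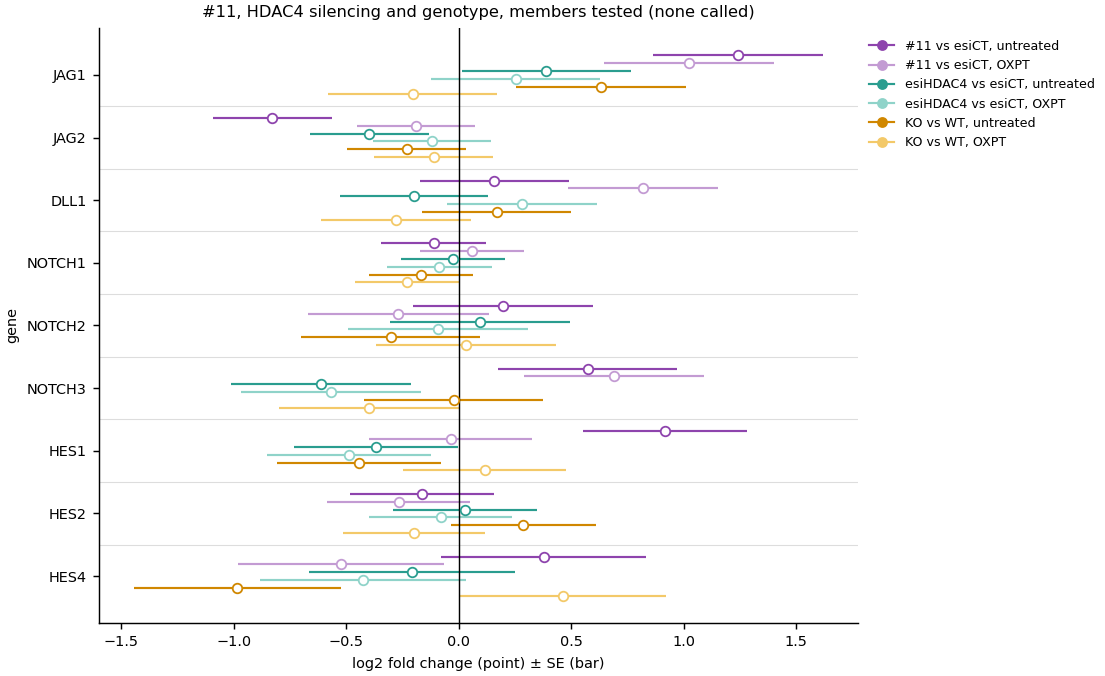
Log2 fold change of the 9 tested genes for #11 against esiCT, esiHDAC4 against esiCT and KO against WT, each untreated and with OXPT; points are edgeR estimates, bars standard errors, and open circles mark that none was called. JAG1 with #11 (1.24 and 1.02) lies farthest to the right and HES4 for KO against WT untreated (-0.98), which rests on 1 WT library, farthest to the left.

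The differences in OXPT effect between arms were tested for the 8 genes other than HES2, and 0 were called by edgeR or DESeq2 in each of the 3 interactions. Over all genes edgeR called 0.0% in each, and DESeq2 called 36 genes in the #11 interaction. An unadjusted p under 0.05 was found for 1 gene in the genotype interaction, HES4 (1.45, SE 0.65), against 1.63% of all genes, and for 0 genes in the silencing (0.154%) and #11 (6.98%) interactions. For HES2 the interactions are given as values only: -0.49 (SE 0.45) for KO against WT, -0.11 (SE 0.45) for esiHDAC4 and -0.10 (SE 0.45) for #11 against esiCT.

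The rest of the pathway was followed with lists of 66 further genes, of which 55 passed the count minimum. After OXPT 5 rose and 1 fell in KO esiCT, 6 rose in WT, 4 rose and 1 fell in KO esiHDAC4, and 9 rose in KO #11 cells. These are 10.9%, 10.9%, 9.09% and 16.4% of the 55 genes, beside backgrounds of 11.3%, 10.7%, 12.0% and 9.51%. The median log2 fold change of the 55 genes was -0.09, -0.03, -0.06 and -0.07 in the same order. In the other 9 comparisons, interactions included, 0 of the 55 were called by edgeR, where 0.0% to 0.51% of all genes were. With so few calls over all genes, 0 of 55 says little about the pathway. The lists below are parts of these 55 genes, and their calls stand beside the same backgrounds.

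Among receptors and ligands outside the 10 genes, 2 of 5 were tested, and DLK2, a noncanonical ligand of the Delta family, rose in all 4 arms. Its log2 fold change was 1.46 (SE 0.33) in KO esiCT, 1.26 (SE 0.33) in WT, 1.59 (SE 0.33) in KO esiHDAC4 and 1.14 (SE 0.32) in KO #11 cells, from 2.25 to 2.49 CPM untreated to 5.42 to 6.78 CPM with OXPT. Of the 4 ubiquitin ligases that activate ligands by driving their uptake, NEURL1B rose in KO #11 (1.75, SE 0.39, from 12.2 to 41.2 CPM) and was at -0.24 to 0.58 in the other arms. Of the 6 enzymes that place sugars on Notch and so tune its choice of ligand, MFNG rose in KO esiCT (1.47, SE 0.34), WT (1.16, SE 0.34) and KO esiHDAC4 (1.52, SE 0.34). In KO #11 MFNG was higher without overlap but not called (0.90, SE 0.33, adjusted p = 0.0993 in edgeR). RFNG rose in KO #11 (1.25, SE 0.29, from 61.8 to 147 CPM). It was also higher without overlap, but not called, in KO esiCT (0.69, SE 0.29) and KO esiHDAC4 (0.87, SE 0.29, adjusted p = 0.0527 in edgeR), and was at 0.47 (SE 0.29) with overlap in WT cells. These are low genes apart from RFNG and NEURL1B, and the calls of DLK2 and MFNG were each lost in at least 1 alternative in every arm where they were made except KO esiHDAC4.

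The 8 tested genes of Notch cleavage included 1 call, in KO esiCT cells, where 11.3% of all genes were called. NCSTN, a subunit of gamma-secretase, fell there (-0.65, SE 0.20, adjusted p = 0.0372 in edgeR, from 59.9 to 38.1 CPM). The NCSTN changes in the other 3 arms did not pass. They were -0.60 in WT (adjusted p = 0.0577 in edgeR), -0.39 in KO esiHDAC4 and -0.43 in KO #11, each lower without overlap. Of 8 tested genes of the nuclear activation complex, the acetyltransferase KAT2A rose in WT (0.74, SE 0.20) and KO #11 (0.91, SE 0.20). It also rose in KO esiHDAC4 (0.62, SE 0.20), close to the threshold (adjusted p = 0.0471 in edgeR). In KO esiCT it was higher without overlap but not called (0.44, SE 0.20). The coactivator MAML2 fell in KO esiHDAC4 (-2.47, SE 0.69, from 5.19 to 0.913 CPM) and was at -1.88 to -2.13 in the other arms without a call. Its OXPT libraries were lower without overlap in KO esiCT and KO #11, while the groups overlapped in WT cells. Of 13 tested corepressor genes CIR1, a corepressor partner of RBPJ, rose in KO #11 (1.06, SE 0.33, adjusted p = 0.0467 in edgeR). It was at 0.83 in KO esiCT and 0.24 in WT cells with overlap, and at 0.65 without overlap in KO esiHDAC4. None of these was called. Among the wider-pathway genes, results under the alternatives are reported only for DLK2, MFNG and DTX1.

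Of 11 tested genes that act on Notch turnover, 3 rose in KO esiCT, 2 in WT, 1 in KO esiHDAC4 and 4 in KO #11 cells. Over all genes 11.3%, 10.7%, 12.0% and 9.51% were called in the same order. Whether this short list differs from those shares was not tested. DTX1, a Deltex ubiquitin ligase and itself a Notch target in some cells, rose in all 4 arms: 1.28 (SE 0.36) in KO esiCT, 1.41 (SE 0.36) in WT, 1.37 (SE 0.37) in KO esiHDAC4 and 2.16 (SE 0.37) in KO #11, from 1.66 to 2.26 CPM untreated to 4.42 to 7.43 CPM with OXPT. At these low levels the DTX1 call was lost in some alternatives in every arm except KO #11. DTX2 rose in KO esiCT (0.74, SE 0.22), WT (0.76, SE 0.22) and KO #11 (0.70, SE 0.22, adjusted p = 0.0458 in edgeR). In KO esiHDAC4 it was at 0.65 (SE 0.22, adjusted p = 0.0558 in edgeR), without overlap. DTX4 rose in KO #11 (1.15, SE 0.32). Without a call it was at 0.87 (SE 0.32) without overlap in WT cells, and at 0.33 and 0.61 with overlap in KO esiCT and KO esiHDAC4. FBXW7 counts rose in KO esiCT (1.33, SE 0.31) and KO #11 (1.09, SE 0.31), that is in the FBXW7-/- line itself. In KO esiHDAC4 they were higher without overlap but not called (0.93, SE 0.31, adjusted p = 0.0519 in edgeR). The WT change was 0.51 (SE 0.31) with overlap. WT libraries read 16.9, 23.5 and 22.8 CPM untreated and 42.3, 33.9 and 13.5 CPM with OXPT. Of 3 tested further HES, HEY and target genes HEYL rose in WT cells (0.66, SE 0.20). It was also higher without overlap, but not called, in KO esiHDAC4 (0.51, SE 0.20) and KO #11 (0.44, SE 0.20). In KO esiCT it was at 0.15 with overlap. Of the 10 secretory lineage genes only GFI1 passed the minimum, and it was not called; the 10 together summed to 6.66 to 19.1 CPM, so the secretory genes that Notch restrains were low in all groups.

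**Figure D5:**
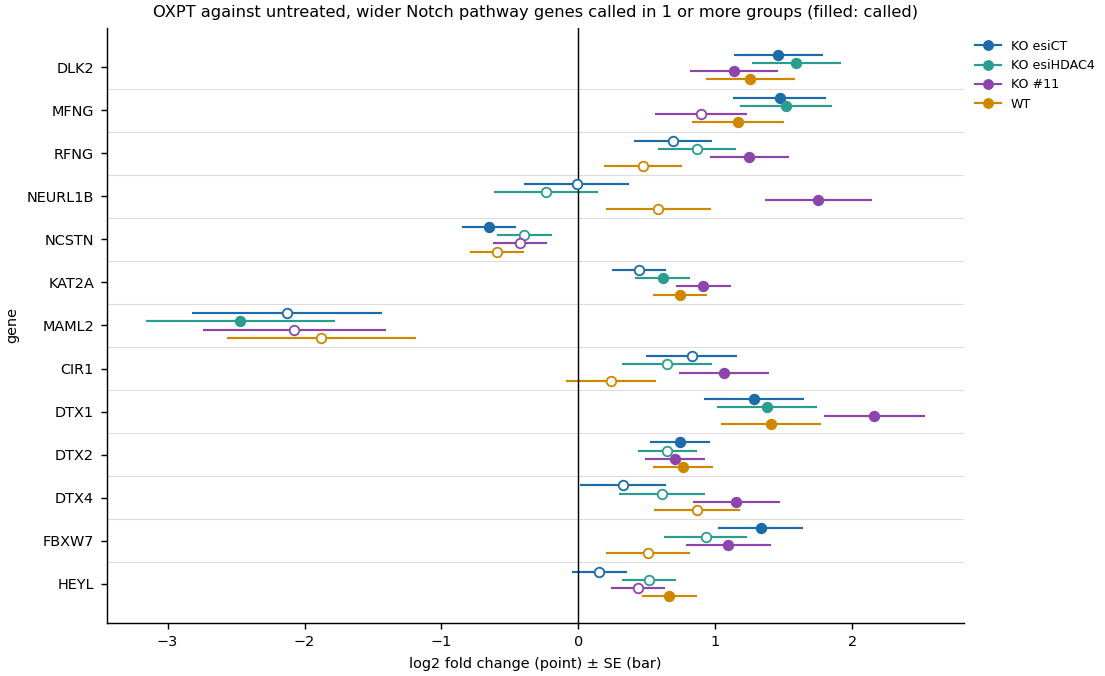
Log2 fold change of OXPT against untreated in the 4 arms for the 13 wider-pathway genes called in at least 1 arm; points are edgeR estimates, bars standard errors, filled points called. DLK2 and DTX1 are filled in all 4 arms (1.14 to 1.59 and 1.28 to 2.16), NEURL1B in KO #11 only, and NCSTN and MAML2 lie left of 0.

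The 5 genes outside the list whose log2 CPM followed HES2 most closely over the 24 libraries were ABCB9 (Pearson r = 0.98), GRIN2C (0.97), RTL5 (0.97), TNNI2 (0.97) and TNFRSF10C (0.97), a decoy receptor of the death ligand TRAIL. Most of this likeness is the difference between OXPT and untreated libraries, which these points share. With each group centred on its mean, r was 0.82 for ABCB9, 0.70 for GRIN2C, 0.88 for RTL5, 0.58 for TNNI2 and 0.58 for TNFRSF10C. Replicate 3 was the highest HES2 library in every group except untreated WT cells. The part of what same-numbered libraries share in these r values was not tested.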

How the data were processed

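The measurement was polyA RNA-seq of HCT-116 cells, with the library kit labelled as stranded. The authors deposited gene counts, 1 table a library; the submitters' processing notes name Trimmomatic 0.39, STAR 2.7.11a and hg38, and the annotation is not given in the sources used here. Of the 62757 gene IDs, 62639 were given a symbol through GENCODE 44. Forward and reverse counts were nearly equal in every library (ratio 1.00 to 1.02), so the deposited unstranded counts were used, which cannot separate overlapping genes on opposite strands. Unmapped reads (7.74 to 22.3%), ambiguous reads (10.6 to 12.2%) and reads in no gene (2.58 to 5.79%) are separate lines of the deposited count tables and stayed out of library sizes. Between same-group libraries 24 of 24 pairs differed beyond counting noise, so none was counted as a duplicate.

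The 8 groups of 3 libraries were fitted together with 1 coefficient a group in edgeR 4.0.16 (R 4.3.3) by its quasi-likelihood test, after TMM scaling, on the 12356 genes with a mean of at least 64 counts in at least 1 group. Calls were made past a fold change of 1.5 with p adjusted by Benjamini-Hochberg under 0.05. CPM are counts scaled by TMM-adjusted library size; standard errors were taken as the log2 fold change divided by the root of the F statistic. Over 13 comparisons, same-numbered libraries deviated together (correlation of deviations from group means 0.11 to 0.79) in all but the 3 of #11 against esiCT, so the replicate number was also fitted as a block; that pairing is read from the data alone. Alternatives were the other count columns, 2 other filters, RLE size factors, DESeq2, fits to only the groups compared, the block, and each library left out. The test was also run on simulated counts drawn independently for each library. They held nothing shared by same-numbered libraries, so that run does not cover such sharing. The 10 genes, the wider-pathway and marker lists, and the tests were chosen with earlier results of these data known. The text names all 10 genes, every wider-pathway gene called, and the 5 genes most correlated with HES2. For 12 other WT libraries the title and the treatment entry contradict each other, so they entered no comparison.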

Additional observations from a re-analysis of the deposited data

Results flagged for a closer look

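HES2 was also measured in 12 WT libraries that entered no comparison, because their titles and treatment entries contradict each other. Of these, 8 of 12 read above the highest untreated WT library (27.4 CPM, all 36 libraries scaled together), which is what drew attention to them. The 12 values ran from 15.3 to 213 CPM with a median of 65.3 CPM. Whether they belong with the untreated or the OXPT groups is unsettled, and no group was formed from them.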

How the results depend on the processing

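After OXPT in KO esiCT cells, where 1 gene (JAG2) was called, the count was 0 with reverse-strand counts, with no count filter, with a mean of 64 counts in every group and with only the groups compared, 2 with the replicate block (HES1 and JAG2), 2 with number 3 left out of every group (JAG2 and NOTCH1), and 0 to 1 when 1 library was left out. In WT cells the count of 0 became 1 with no filter (HES4), with the replicate block and with number 3 left out (JAG2 both times), and 0 to 1 when 1 library was left out (NOTCH1 without untreated replicate 2, JAG2 without untreated replicate 3). In KO esiHDAC4 the count of 1 became 2 with the replicate block (HES1 and JAG2), 2 with the block in only the groups compared (JAG1 and JAG2), and 0 to 2 with 1 library out. In KO #11 it became 2 with no filter (HEY1 and JAG2), 3 with only the groups compared (JAG1, JAG2 and NOTCH1), the same number with the block added to that fit, and 4 with number 3 left out, which adds NOTCH3. HDAC4 silencing untreated gave 1 (NOTCH3) with the block in only the groups compared. Untreated #11 gave 1 with no filter (JAG1), 1 with DESeq2 (JAG1), 2 with only the groups compared (HES1 and JAG1), 1 with the replicate block (HES1) and 3 with number 3 left out (HES1, JAG1 and JAG2); #11 with OXPT gave 1 with no filter (JAG1) and 1 with number 3 left out (NOTCH3). The block over all 24 libraries changed no other count; with the block in only the groups compared, untreated #11 gave 0 and OXPT in KO esiCT gave 1 (JAG2). The 2 alternatives that leave number 3 out of every group, or add the block to only the groups compared, were chosen after seeing the data. The number called over all genes moved with the setting too. For untreated #11 it was 63 as reported, 409 with DESeq2 and 566 with only the groups compared. It was 397 with the replicate block and 1816 with number 3 left out. With only the groups compared, OXPT in KO #11 went from 1175 to 2636 and OXPT in KO esiCT from 1398 to 553. With the replicate block they were 1713 and 1946. How far the counts above follow these shifts, and their cause, was not tested.

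HES4 reversed: KO against WT untreated was -0.98, ran from -1.38 to 0.16 with 1 library left out (the last without WT untreated replicate 3) and was 0.15 with number 3 left out, OXPT in WT was -0.85, ran from -1.26 to 0.30 (again without that library) and was 0.15, and the genotype interaction went from 1.45 to -0.10 with number 3 left out. No OXPT change of HES2, JAG2, NOTCH1, DLK2, DTX1 or MFNG changed sign in any alternative run, nor did JAG1 with #11. Small changes without a call can: JAG1 after OXPT in WT was 0.19, and -0.13 without untreated replicate 3. HES2 after OXPT ran from 1.96 to 2.96 with 1 library left out. Adjusted p for JAG2 after OXPT ran from 0.01 to 0.192 in KO esiCT, 0.0242 to 0.391 in WT, 0.000758 to 0.056 in KO esiHDAC4 and 3.31e-06 to 0.0153 in KO #11. Over all genes the count called after OXPT ran from 553 to 2178 in KO esiCT (1398 as reported), 84 to 2614 in WT (1322), 807 to 2250 in KO esiHDAC4 (1480) and 555 to 3011 in KO #11 (1175). For #11 it ran from 0 to 1816 untreated (63) and from 0 to 1438 with OXPT (15), for KO against WT from 1 to 322 untreated (36) and 0 to 91 with OXPT (17), for HDAC4 silencing untreated from 0 to 560 (1) and with OXPT from 0 to 9 (0), and for the #11 interaction from 0 to 244 (0). HEY1 lay below the count minimum, and DLK2, DTX1 and MFNG, at 2 to 8 CPM, fell below it and gave no value in 3 to 5 alternatives.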

Other observations

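In the 12 WT libraries with contradicting labels, scaled with all 36 libraries, HES2 values fell into a lower and a higher set with none between 42.5 and 88.0 CPM. The 3 libraries titled WT PROTAC11, whose treatment entry names OXPT, read 28.1, 23.5 and 42.5 CPM. The 3 titled WT PROTAC11 OXPT, whose entry names no OXPT, read 115, 88.0 and 117 CPM. The 3 titled WT siHDAC4 OXPT, whose entry names no OXPT, read 113, 142 and 213 CPM. The 3 titled WT siHDAC4 UNT, whose entry names OXPT, read 26.6, 15.3 and 23.1 CPM.

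JAG2 in the same libraries read 177, 144 and 184 CPM, then 324, 181 and 158, then 170, 243 and 298, and last 84.0, 95.1 and 160 CPM, in the same order of titles. JAG1 ran from 27.6 to 73.4 CPM over the 12. HES4 ran from 61.3 to 372 CPM, and 2 of the 12 libraries, both numbered 3, stood far above the rest at 323 and 372 CPM, as replicate 3 of the untreated WT group did at 362 CPM on this scale.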
